A study of Homo sapiens with 9 samples.

Results

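TVB-3166 is an inhibitor of fatty acid synthase, the enzyme that builds palmitate from acetyl-CoA and malonyl-CoA. PANC-1, a human pancreatic adenocarcinoma line, was exposed for 72 hours to 1.0 µM TVB-3166 or to DMSO alone, and the RNA of both groups was compared across all genes. The arrays were chosen by their titles: the 3 titled 1.0 µM and the 3 titled DMSO, 6 of the 9 arrays in the series. The other 3 arrays (0.1 µM) entered the fit so that all groups shared 1 estimate of spread, and are quoted where dose is at issue. Both groups were seeded in DMEM with 10% serum and moved on the next day to Advanced MEM with 1% charcoal-filtered serum, which the controls share. The treatment field of the 1.0 µM samples reads 0.1 µM, against their title, source name and description. The description of 0.1 µM replicate 1 names DMSO only, against its title and source name, and the DMSO content appears as both 0.05% and 0.5%. The labels speak of triplicate treatments and do not say whether these were separate cultures, so the p-values measure the spread between arrays, which may be technical.

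Most tumour lines make their own palmitate, which becomes membrane phospholipid, the lipid anchor of many signalling proteins and stored fat. Genes linked to several known transcription programmes are named below, and the activity of the factors was not measured. ATF4 raises amino acid transporters and synthetases under nutrient stress, NF-kB raises cytokines and their inhibitors, and interferon-regulated factors raise antiviral proteins. Lipid and cell cycle genes are mentioned here only in passing. The account below concerns the remaining genes, grouped by protein family or pathway.

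Each array reports a MAS5 signal for every probe set, a linear brightness with no unit. Changes are differences of log2(signal + 16) between the 1.0 µM and DMSO arrays, given with the limma standard error, n = 3 arrays a group. The added 16 shrinks changes relative to plain signal ratios, and more so where a gene is dim. A gene was called higher or lower at a Benjamini-Hochberg adjusted p under 0.05 in limma's moderated test over 13948 genes, and the probe set with the highest mean stood for its gene. Probe sets whose mean signal was under a filter level of 38.95 were not tested. Other probe sets of a gene are quoted for some genes only, and elsewhere they may show a weaker change or none. FASN, the target itself, read 3152, 3208 and 5638 in DMSO and 7213, 9199 and 7000.2 at 1.0 µM; its change was 1.01 ± 0.21 (adjusted p = 0.0039).

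The arrays carried the marks of an epithelial tumour line. KRT8 and KRT18, keratins of simple epithelium, had mean DMSO signals of 19993 and 21984, and EPCAM, an epithelial adhesion protein, had 1486. The endocrine markers INS, GCG, SST and CHGA and the acinar markers CPA1 and PNLIP lay below the filter level of 38.95 in every group. CELA3A, another acinar marker, lay above it, with mean signals of 57.0 in DMSO, 71.5 at 0.1 µM and 90.9 at 1.0 µM, and was not called. Of the 5 blood markers PTPRC, CD14 and LYZ lay below it too, while CD3E and HBB were above it and not called. Along the first principal component, with 40.5% of the variance, scores ran from −32.54 to −31.93 in the DMSO arrays and from 22.73 to 24.53 at 1.0 µM. Control RNAs are added to each hybridisation in known amounts, and their 9 probe sets averaged a log2 signal of 11.926 in DMSO replicate 2 and 12.088 in 1.0 µM replicate 2, against 11.226 to 11.414 in the other 4 arrays of these groups. The 2 arrays with high spikes also had a wider range of signals (maximum 35266 and 39597, against 22698 to 28035). The DMSO and 1.0 µM groups each hold 1 such array. Of the 245 genes whose values were tabulated for the text, 243 had the same sign within the high-spike pair and within the 4 other arrays, and the exceptions, EPCAM and JUN, were not called. Size was less stable: in 57 of the 238 called genes the pair and the 4 arrays differed by over 1.5 times, FASN among them, and within the lower spike set its change of 0.75 did not pass (adjusted p = 0.0649 in limma). The part of the spike difference in this was not tested.

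At 1.0 µM 1711 genes were higher (12.3% of those tested) and 1529 were lower (11.0%). The median change over all genes was 0.01. Large changes leaned upward: 368 genes rose at least 2-fold (2.64%) against 257 that fell as far (1.84%), and 51 rose at least 4-fold against 12. The filter used a mean over all 9 arrays, of which only 3 were DMSO. A gene dim only in DMSO could thus pass more easily than one dim only under treatment. The part of the filter in this lean was not tested. Many calls were modest: 1452 of the 3240 called genes changed by under 1.5-fold. In 37.2% of all genes, and in 3195 of the 3240 called genes, the 3 treated arrays lay wholly on one side of the 3 DMSO arrays. Calls were scarcer among dim genes. Genes were put in 4 equal classes by mean signal. In the dimmest (39.8 to 152) 7.28% were called, with a median rise of 1.04, whereas in the brightest (1840 and above) 29.7% were called, with a median rise of 0.55. Among 5895 probe sets with no single gene symbol 7.89% were called, and these are left out of the counts by gene.

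**Figure D1:**
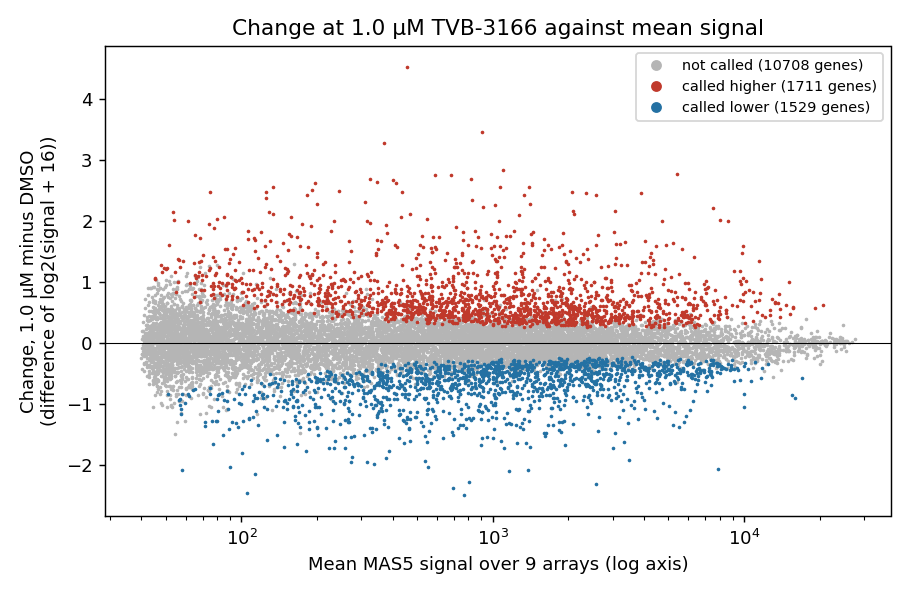
Change at 1.0 µM against DMSO (difference of log2(signal + 16), vertical axis) against mean signal over all 9 arrays (horizontal log axis), 1 point per gene. Of 13948 genes 1711 were called higher and 1529 lower, and the points furthest from 0 are mostly above it (51 rises and 12 falls of at least 4-fold).

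IL32, a proinflammatory cytokine, rose furthest of all genes, by 4.52 ± 0.16 on the log2 scale (adjusted p = 1.69e-08). Its signal was 18.8, 18.7 and 32.5 in DMSO and 820.3, 976 and 835 at 1.0 µM, so the DMSO arrays lay below the filter level and the change is understated. PTX3 encodes a long pentraxin, a soluble pattern recognition protein. It read 238, 219 and 189.7 in DMSO and 2030.4, 934 and 1666 at 1.0 µM, a rise of 2.69 ± 0.24 (adjusted p = 1.02e-05). LCN2, whose product binds bacterial iron carriers, read 62.9, 92.8 and 101 in DMSO and 568, 632 and 612 at 1.0 µM and rose by 2.63 ± 0.17. In both genes every treated array lay above every DMSO array, which the choice of the steepest rises required. TAC1, the precursor of the neuropeptide substance P, rose by 2.55 ± 0.24 from 35.1, 20.9 and 25.3 to 299.8, 170 and 252, again from below the filter level.

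Further large rises concerned intracellular proteins. LAMP3, a lysosomal membrane glycoprotein, had very even arrays at 677, 709.5 and 682 in DMSO and 3843, 3882 and 3809 at 1.0 µM, a rise of 2.45 ± 0.08 (adjusted p = 1.17e-08). NIBAN1, a stress-responsive cytoplasmic protein, rose by 2.47 ± 0.11, from 608, 663 and 509 to 3452, 3261 and 3294. MOCOS, which sulfurates the molybdenum cofactor of xanthine dehydrogenase and aldehyde oxidase, rose by 2.55 ± 0.11 (302 to 1844 in mean signal). HKDC1, a hexokinase-like enzyme, rose by 2.51 ± 0.17 (41.9 to 313) and TM6SF1, a membrane protein, by 2.62 ± 0.17 (105 to 723). BEX2 and BEX4, small adaptor proteins encoded on the X chromosome, rose by 2.77 ± 0.09 and 2.67 ± 0.18. BEX4 read 90.2, 103 and 87.6 in DMSO and 849.6, 505 and 729 at 1.0 µM. The family of BEX and TCEAL proteins had 9 tested members, and the other 7 were not called. The share called, 22.2%, was near the 23.2% of all genes.

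**Figure D2:**
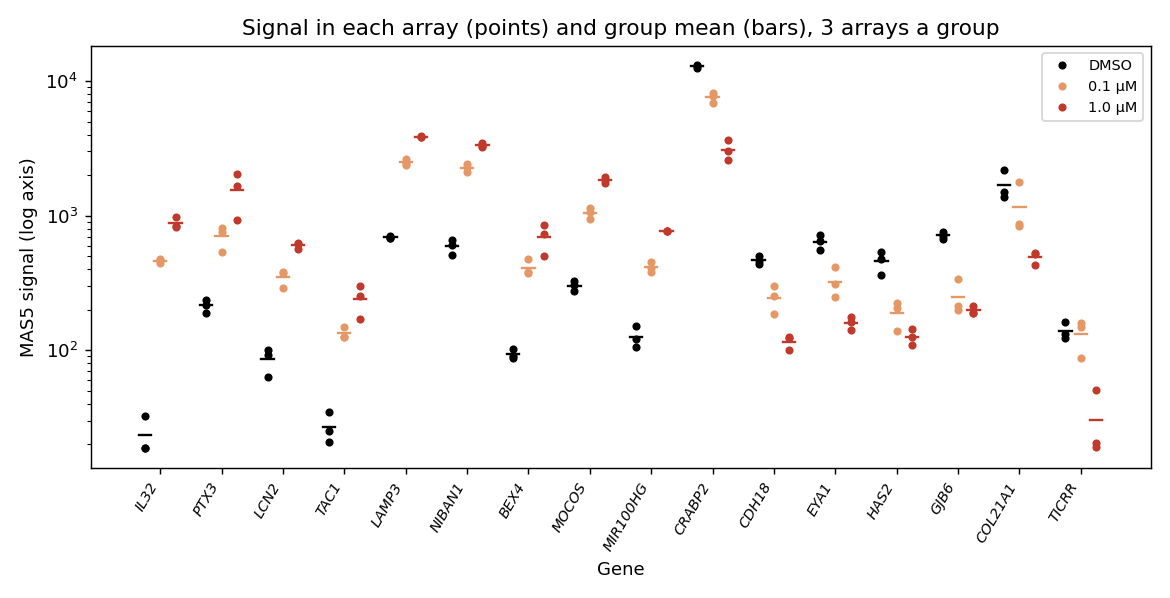
MAS5 signal (log axis) of 16 of the genes with large rises or falls in each DMSO, 0.1 µM and 1.0 µM array (1 point per array, 3 arrays a group, bars at the group mean). In each gene shown the 1.0 µM points lie entirely above or below the DMSO points. The steepest genes were drawn on that condition.

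Matrix, adhesion and developmental genes stood among the deepest falls. CRABP2, the cytosolic carrier of retinoic acid, read 12584, 12895 and 13128 in DMSO and 2597, 3661 and 3005 at 1.0 µM, a fall of 2.07 ± 0.12 (adjusted p = 5.56e-07). CDH18, a neural-type cadherin, fell by 1.87 ± 0.18 from 458, 504 and 438 to 122, 125 and 100.1. EYA1, a transcriptional coactivator of organ development, fell by 1.90 ± 0.18 from 724, 647 and 553 to 178, 162 and 141. HAS2, which makes the matrix polymer hyaluronan, fell by 1.73 ± 0.20 (460.1 to 126 in mean signal) and GJB6, a gap junction protein, by 1.77 ± 0.18 (713 to 198). Further genes of the deepest 24 were FAM13A (−2.04), MEGF6 (−1.98), the Ras-like RASL11A (−1.96), the ubiquitin ligase gene NEURL1B (−1.95), the neuropeptide gene NPW (−1.78) and TICRR (−1.80), which acts in replication initiation. The treated mean of TICRR, 30.2, is below the filter level.

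Among transcription factors the group of AP-1, ATF, CEBP, small MAF and EGR proteins was mostly higher. Of its 21 tested members 13 were higher (61.9%, against 12.3% of all genes), none was lower, and the median change was 0.71 against 0.01. ATF3, a stress-induced repressor, read 1227, 1353 and 1443 in DMSO and 4034, 6491 and 4079 at 1.0 µM and rose by 1.81 ± 0.17 (adjusted p = 1.46e-05). CEBPB, an activator of acute-phase and adipogenic genes, read 5190.2, 5356 and 5567 in DMSO and 10859, 14814 and 11091 at 1.0 µM, a rise of 1.17 ± 0.14. CEBPG, a partner of ATF4, rose by 1.47 ± 0.12 and CEBPD by 1.34 ± 0.12. FOSL1, which pairs with JUN proteins, rose by 1.63 ± 0.19 from 1284, 1409 and 2179.9 to 4579, 5827 and 4441. JDP2 (1.11), MAFG (0.91), JUND (0.71) and BATF3 (0.64) were higher by less. The 8 members not called included JUN (−0.01, adjusted p = 0.949) and EGR1 (0.43, adjusted p = 0.0987).

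ETS and SOX factors split. ETS1 rose by 0.98 ± 0.18 (2760.1, 2356 and 2348 in DMSO and 5657, 3669.5 and 5680.5 at 1.0 µM) and ETV4 by 1.33 ± 0.36, while ETS2 fell by 0.95 ± 0.09 (2819, 2729 and 2613 in DMSO and 1397, 1406 and 1408 at 1.0 µM) and the epithelial factor ELF3 by 1.08 ± 0.15. All 4 had groups that did not overlap. In all 5 of 29 genes rose (17.2%) and 6 fell (20.7%), against 12.3% and 11.0% of all genes. HOX genes, which set position along the body axis, had no rise and 6 falls among 22, all in the B and C clusters: HOXC13 (−0.88), HOXB8 (−0.79), HOXC9 (−0.79), HOXC10 (−0.75), HOXB5 (−0.63) and HOXB3 (−0.50). The share of HOX genes that fell was 27.3%, against 11.0% of all genes, with a median over the family of −0.12. HOXC10 read 3140.4, 2917 and 4699.9 in DMSO and 2117, 2229 and 1888 at 1.0 µM. NR2F1, an orphan nuclear receptor, fell by 1.26 ± 0.16 and the vitamin D receptor VDR rose by 1.11 ± 0.22. Only 3 of 29 nuclear receptors were called (10.3%, against 23.2% of all genes). Zinc finger ZNF genes, the largest family counted, had 37 higher and 32 lower of 417 (8.87% and 7.67%), below the shares over all genes.

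Several feedback inhibitors of growth factor signalling rose. Of 20 dual-specificity phosphatases, which switch off MAP kinases, 8 were higher (40%) and 1 was lower (5.0%), against 12.3% and 11.0% of all genes. DUSP6, an ERK phosphatase, read 767, 526 and 550.5 in DMSO and 1459, 1653 and 1824 at 1.0 µM, a rise of 1.41 ± 0.14 (adjusted p = 2.4e-05). DUSP1 rose by 0.83 ± 0.09 (4077 to 7286 in mean signal), whereas DUSP2 fell by 1.05 ± 0.21 (187 to 83.8). SPRY2 and SPRY4, which restrain receptor tyrosine kinase signalling, rose by 0.84 ± 0.10 and 1.18 ± 0.12. RGS20, which speeds GTP hydrolysis by G alpha subunits, rose by 1.38 ± 0.10 from 1283, 1198 and 1048 to 3009, 3317 and 2947. Probe sets of DUSP1 spread from −0.57 to 0.99 and those of EGFR from −0.44 to 0.76. The receptor tyrosine kinases themselves changed in both directions, 5 higher and 4 lower of 25. Both shares were above those of all genes (12.3% and 11.0%). MERTK rose by 1.60 ± 0.15 (663, 752 and 748 in DMSO and 2181, 1876 and 2638 at 1.0 µM) and EGFR by 0.53 ± 0.14. FGFR3 fell by 1.26 ± 0.14, RET by 1.06 ± 0.08 (3138, 3119 and 3042 in DMSO and 1514, 1436 and 1496 at 1.0 µM), PTK7 by 1.08 ± 0.13 and ERBB2 by 0.69 ± 0.13. The treated values of RET and MERTK lay on opposite sides of their DMSO values in all 3 arrays.

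TNF family and interleukin genes were higher more often than lower. Of 39 TNF family ligands, receptors and adaptors 11 rose (28.2%, against 12.3%) and 1 fell, with a median of 0.15. TNFRSF10B, a death receptor for TRAIL, read 2871, 2289 and 2240.4 in DMSO and 6329.6, 5447 and 6323 at 1.0 µM and rose by 1.29 ± 0.11 (adjusted p = 8.59e-06). TNFRSF1A, a TNF receptor, rose by 1.10 ± 0.16 and the adaptor TRAF1 by 1.67 ± 0.15. TNFRSF9, a costimulatory receptor, rose by 2.38 ± 0.30, from 40.8, 9.2 and 39.4 to 232, 233 and 164, and TNFSF9, its ligand, by 1.68 ± 0.36. Among 44 interleukins and interleukin receptors 12 rose (27.3%) and 2 fell (4.55%), against 12.3% and 11.0% of all genes. IL31RA rose by 2.06 ± 0.27 (38.5, 46.5 and 62.8 in DMSO and 184, 250 and 349 at 1.0 µM), IL15 by 0.99 ± 0.18 (265 to 531 in mean signal) and IL20RB by 1.16 ± 0.24, while IL11RA fell by 0.62 ± 0.14.

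Chemokines, which attract leukocytes, had 6 rises (46.2%) and 1 fall (7.69%) among 13, against 12.3% and 11.0% of all genes tested. CX3CL1, a membrane-bound chemokine, read 382, 348 and 420.4 in DMSO and 1938, 2468 and 2017 at 1.0 µM, a rise of 2.43 ± 0.14 (adjusted p = 4.12e-07). CXCL2 rose by 1.76 ± 0.18 (66.1 to 263 in mean signal), CCL2 by 0.69 ± 0.13 (3160.3 to 5144) and CXCL1 by 0.65 ± 0.13 (469.5 to 752). CXCL6 was the fall, but no chemokine was called lower in 14 of the 21 alternatives besides the 1.5-fold rule. Inhibitors of cytokine signals rose as well, 10 of 21 (47.6%) with 2 falls (9.52%). NFKBIA, which holds NF-kB in the cytoplasm, rose by 0.97 ± 0.12 from 3148, 3009 and 3471 to 5756, 7311 and 5869.7. NFKBIE rose by 1.16 ± 0.15, the ubiquitin-editing TNFAIP3 by 1.23 ± 0.15 and SOCS3, an inhibitor of JAK kinases, by 0.94 ± 0.09. PIAS1, a SUMO ligase that restrains cytokine signalling, fell by 0.86 ± 0.09 (1668, 1691 and 1625 in DMSO and 891, 967 and 878 at 1.0 µM). The sensors and factors of innate immunity had 6 rises (28.6%) and 1 fall (4.76%) among 21: IRF1 rose by 1.83 ± 0.11 (307, 349.8 and 386 in DMSO and 1263, 1322 and 1240.3 at 1.0 µM), the kinase gene IRAK2 by 1.61 ± 0.15 and the double-stranded RNA sensor IFIH1 by 1.25 ± 0.12, and the adaptor MYD88 fell by 0.38 ± 0.08. The other probe set of IFIH1 was at 0.23, and the weakest of SOCS3 was at 0.35. Of 21 genes of antigen presentation 6 rose (28.6%) and none fell, led by the peptide transporter TAP1 (1.25, 757, 783 and 953 in DMSO and 1637, 2311 and 2065 at 1.0 µM).

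Interferon-inducible IFI, IFIT, GBP and OAS genes had 12 rises and 2 falls among 23 (52.2% and 8.70%, against 12.3% and 11.0% of all genes). A run of 4 neighbouring tested genes on chromosome 10 rose together: IFIT2 (2.28), IFIT3 (2.16), IFIT1 (1.08) and IFIT5 (0.77), which encode antiviral RNA-binding proteins. IFIT1 read 568, 574 and 675 in DMSO and 1201, 1449 and 1256 at 1.0 µM and IFIT5 read 739.9, 642 and 672 in DMSO and 1326, 999.7 and 1234 at 1.0 µM. Promoter windows from RefSeq on GRCh38.p14, 250 bases before to 50 after the annotated start, were held for 3 of the 4. They are printed because these neighbours moved together, with each match to the ISRE core of interferon-regulated factors (GAAA, any 2 bases, GAAA, on either strand) in capitals. They lie at chr10:89327747-89328046, chr10:89392373-89392672 and chr10:89414318-89414617, all on the plus strand.
IFIT3: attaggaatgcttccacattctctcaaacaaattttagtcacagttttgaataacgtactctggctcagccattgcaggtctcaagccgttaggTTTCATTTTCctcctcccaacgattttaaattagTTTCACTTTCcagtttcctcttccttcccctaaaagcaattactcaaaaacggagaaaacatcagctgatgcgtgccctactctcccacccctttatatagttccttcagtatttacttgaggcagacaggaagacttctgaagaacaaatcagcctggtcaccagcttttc
IFIT1: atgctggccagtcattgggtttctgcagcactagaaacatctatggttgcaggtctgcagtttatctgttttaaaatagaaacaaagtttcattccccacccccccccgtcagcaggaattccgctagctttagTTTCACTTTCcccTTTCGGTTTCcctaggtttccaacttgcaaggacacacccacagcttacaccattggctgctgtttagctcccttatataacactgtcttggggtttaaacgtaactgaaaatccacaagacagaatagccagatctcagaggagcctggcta
IFIT5: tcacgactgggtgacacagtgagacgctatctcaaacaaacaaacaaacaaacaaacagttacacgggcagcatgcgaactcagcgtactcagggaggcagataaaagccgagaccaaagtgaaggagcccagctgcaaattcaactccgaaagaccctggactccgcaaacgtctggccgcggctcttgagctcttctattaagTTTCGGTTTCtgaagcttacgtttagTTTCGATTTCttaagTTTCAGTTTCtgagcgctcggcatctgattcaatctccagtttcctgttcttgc
IFIT3 and IFIT1 each hold 2 matches. In IFIT3 they begin 156 and 122 bases before the start and in IFIT1 116 and 103 bases before it. IFIT5 holds 3, of which the last spans the start site. The motif occurs in 2.79% of the 11218 tested genes with a window. It occurs in 4.50% of windows of genes called higher and 2.92% of those called lower.

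Among genes that rose at least 2-fold, 20 of 277 windows (7.22%) held the ISRE core. They included GBP3 (2.69), ISG20 (2.35), MX1 (1.71), DDX60 (1.28), PARP14 (1.14) and also TRIM16 (1.57) and CLDN7 (1.06). The core of the ATF4-CEBP composite element (TGATGNAA) was in 1.93% of all windows, 3.43% of those of genes called higher and 21 of 277 (7.58%) of those that rose at least 2-fold. The last group held the amino acid and stress genes ASNS (1.04), SLC7A1 (1.20), SLC3A2 (1.51) and CHAC1 (1.81) and also KLHDC7B (3.28) and S100P (2.83), the 2 steepest rises with a match. S100P, a calcium-binding protein, rose by 2.83 ± 0.18 (235 to 1799 in mean signal). Windows of the steepest rises with these motifs are shown next, matches in capitals: KLHDC7B (chr22:50545649-50545948, plus strand) and S100P (chr4:6693628-6693927, plus strand) for the ATF4-CEBP core, and IL32 (chr16:3065153-3065452, plus strand) for the NF-kB consensus, whose 2 matches overlap by all but 1 base.
KLHDC7B: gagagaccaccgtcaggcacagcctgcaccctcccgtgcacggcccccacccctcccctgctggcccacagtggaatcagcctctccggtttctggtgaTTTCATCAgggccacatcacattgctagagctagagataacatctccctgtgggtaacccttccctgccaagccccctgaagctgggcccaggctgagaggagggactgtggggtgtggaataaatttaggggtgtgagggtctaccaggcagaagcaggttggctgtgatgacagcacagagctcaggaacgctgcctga
S100P: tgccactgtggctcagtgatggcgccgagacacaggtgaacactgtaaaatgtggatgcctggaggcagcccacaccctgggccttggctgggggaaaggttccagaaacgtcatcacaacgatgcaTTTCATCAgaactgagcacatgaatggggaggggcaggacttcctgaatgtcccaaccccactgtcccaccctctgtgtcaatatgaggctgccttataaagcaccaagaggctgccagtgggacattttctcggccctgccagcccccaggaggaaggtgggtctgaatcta
IL32: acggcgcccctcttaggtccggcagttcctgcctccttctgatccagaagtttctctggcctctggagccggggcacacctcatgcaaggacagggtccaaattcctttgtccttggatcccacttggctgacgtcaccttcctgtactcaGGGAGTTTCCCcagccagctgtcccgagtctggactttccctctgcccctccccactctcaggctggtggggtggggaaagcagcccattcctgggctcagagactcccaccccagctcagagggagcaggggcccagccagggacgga
The NF-kB consensus is a loose motif, present in 13.1% of all windows, 15.5% of those of genes called higher and 18.1% of those that rose at least 2-fold. The AP-1 site TGANTCA was in 4.65%, 5.64% and 7.94% of the same sets. In windows of genes that fell at least 2-fold the NF-kB consensus was in 29 of 202 (14.4%) and the AP-1 site in 2.97%. In the other direction TTTGAA, the core of the cell cycle homology region, was in 9.88% of all windows and in 48 of 202 (23.8%) of those of genes that fell at least 2-fold. The 48 included the mitotic genes BUB1B, TOP2A and CDK1, and the deepest fall among them was FAM13A (chr4:89057136-89057435, minus strand), shown with its match in capitals.
FAM13A: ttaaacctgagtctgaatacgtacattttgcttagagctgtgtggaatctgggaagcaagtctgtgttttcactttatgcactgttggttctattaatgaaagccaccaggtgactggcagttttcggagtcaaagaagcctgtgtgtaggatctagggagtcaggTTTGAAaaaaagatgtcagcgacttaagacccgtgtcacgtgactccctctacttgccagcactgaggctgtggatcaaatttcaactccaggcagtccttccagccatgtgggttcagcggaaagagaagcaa
Median GC content of the windows was 65.0% over all genes, 65.0% for those that rose and 65.3% for those that fell at least 2-fold. The antioxidant element (TGAC, any 3 bases, GC), 1 of the 13 motifs searched, was in 15% of windows of genes called higher, 15.8% of those called lower and 15.3% of all. Among genes that changed at least 2-fold it was in 49 of 277 windows of those that rose (17.7%) and 33 of 202 of those that fell (16.3%). The CCAAT box was in 36.4% of all windows and 45.5% of those of genes that fell at least 2-fold. The E2F motif was in 2.51% and 2.97% of these sets. A match describes letters in the window and does not show that a factor was bound.

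**Figure D3:**
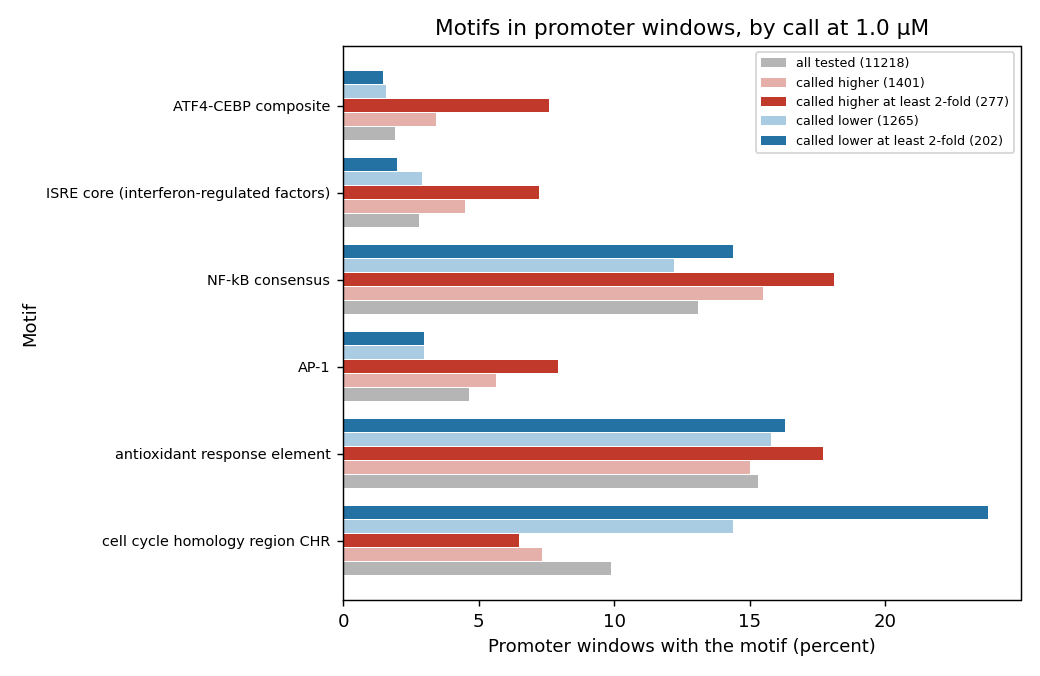
Percent of promoter windows holding each of 6 motifs (horizontal axis) among all tested genes with a window (11218), genes called higher (1401) or lower (1265), and genes that rose (277) or fell (202) at least 2-fold. The ATF4-CEBP core reaches 7.58% and the ISRE core 7.22% in genes that rose at least 2-fold, and the CHR core reaches 23.8% in genes that fell at least 2-fold.

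Matrix proteins fell more often than genes at large. Of 34 collagen and laminin chains 10 fell (29.4%, against 11.0%) and 2 rose, with a median of −0.25. COL1A1 fell by 2.32 ± 0.16 (4342 to 870 in mean signal), and its 4 probe sets spread from −2.47 to 0.09. COL3A1, a fibrillar collagen, read 338, 285 and 317 in DMSO and 116, 103 and 81.8 at 1.0 µM, a fall of 1.51 ± 0.18 (adjusted p = 7.12e-05). COL21A1 fell by 1.73 ± 0.25 (2175, 1511 and 1380.5 in DMSO and 524, 432 and 516 at 1.0 µM), COL5A2 by 0.63 ± 0.10 (6556 to 4223 in mean signal) and LAMB1 by 0.53 ± 0.13. COL27A1 (0.49) and COL16A1 (0.63) rose. MMP2 and MMP16, matrix metalloproteinases, fell by 0.76 ± 0.09 and 1.37 ± 0.13. Other probe sets of MMP2 and MMP16 were as weak as −0.14 and −0.13. Only 4 of 36 matrix proteases and inhibitors were called (11.1%, against 23.2% of all genes). COL3A1 is also 1 of the 5 stromal markers checked. Of the others ACTA2 and DCN were not called and LUM and PDGFRB lay below the filter level in every group.

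Guidance molecules had the highest share of falls of any family with at least 20 tested members. Among 42 semaphorins, plexins, neuropilins, ephrins and EPH receptors 13 fell (31.0%) and 4 rose (9.52%), against 11.0% and 12.3% of all genes. SEMA3F, a secreted repellent, read 4042, 3538 and 4504 in DMSO and 1604, 1498 and 1312 at 1.0 µM, a fall of 1.44 ± 0.11 (adjusted p = 3.98e-06). EPHA7 fell by 1.62 ± 0.19 (834, 762 and 733 in DMSO and 280.5, 193 and 261 at 1.0 µM) and the ligand EFNB2 by 1.27 ± 0.18, from 609.7, 531 and 541 to 255, 187 and 230.3. EPHB1 went the other way, from 32.5, 11.9 and 28.3, below the filter level, to 147, 122 and 180.4 (2.07), and EPHA2 rose by 0.77 ± 0.12 (2745 to 4709.9 in mean signal). Of 24 adhesion molecules 5 fell (20.8%, against 11.0% of all genes) and 1, ICAM1 (2.16), rose (4.17%, against 12.3%). The falls were CDH3, CDH10, CADM1 (−1.40), NECTIN2 (−0.57) and the desmosome and junction protein JUP (−0.56).

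Of 27 WNT ligands, Frizzled receptors and surface regulators 6 fell (22.2%) and 3 rose (11.1%), against 11.0% and 12.3% of all genes tested, with a median of −0.33. The WNT co-receptor gene LRP5 read 1113, 900.5 and 1890 in DMSO and 548, 586 and 559 at 1.0 µM, a fall of 1.11 ± 0.20 (adjusted p = 0.0018), and WNT4 rose by 2.03 ± 0.42 from 10.5, 4.7 and 57.5, with a mean below the filter level, to 100.2, 159 and 119. Of 41 TGF-beta and BMP family genes 12 fell (29.3%) and 6 rose (14.6%). BMP5 fell by 0.98 ± 0.10, TGFB2 by 0.88 ± 0.18 and the inhibitory SMAD6 and SMAD7 by 0.82 ± 0.12 and 0.58 ± 0.15. GDF15, a stress-induced circulating factor, rose by 1.18 ± 0.15 (4913, 5681 and 5516 in DMSO and 10862, 14462 and 11445 at 1.0 µM) and BMP6 by 1.41 ± 0.12. The other probe set of GDF15 was at 0.17. The fall of TGFB2 depended on the probe set, since its 5 probe sets spread from −1.14 to 0.71.

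Keratins moved apart. KRT8 read 15245, 22644 and 22089.6 in DMSO and 10073, 12181 and 10328 at 1.0 µM, a fall of 0.86 ± 0.15. KRT19, a duct keratin, read 17225, 23609 and 20362 in DMSO and 9384, 13147 and 10331 at 1.0 µM, a fall of 0.90 ± 0.17. In both the groups did not overlap. KRT7, another duct keratin, rose by 1.06 ± 0.12 (338, 289.8 and 327 in DMSO and 609.8, 744 and 696 at 1.0 µM), and KRT15, a basal keratin, fell by 1.42 ± 0.15 (1505 to 560.5 in mean signal). The other probe set of KRT7 was at −0.02 and that of KRT19 at −0.09. KRT18, the partner of KRT8, was at −0.30 (adjusted p = 0.395). In all 2 of 19 keratins rose (10.5%) and 4 fell (21.1%), against 12.3% and 11.0% of all genes.

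Splicing factors fell more often than genes at large, by small amounts. Of 95 splicing factors 25 fell (26.3%, against 11.0%) and 4 rose, and the family median was −0.18 against 0.01. HNRNPM read 7232, 7650.5 and 6896 in DMSO and 3907, 4610.2 and 4288 at 1.0 µM, a fall of 0.77 ± 0.10 (adjusted p = 0.000119). SRSF7 fell by 0.64 ± 0.11 (8595, 9290.4 and 8312 in DMSO and 5317, 6402 and 5094 at 1.0 µM), HNRNPA2B1 by 0.61 ± 0.13 and PRPF3, of the tri-snRNP, by 0.84 ± 0.10. No fall in this family reached 2-fold, and other probe sets of HNRNPM and HNRNPA2B1 reached 0.09 and 0.18. RNA helicases had 9 falls and 2 rises among 45. The share of falls was above the 11.0% of all genes, and that of rises (4.44%) was below the 12.3%. DHX9, a multifunctional helicase, fell by 1.13 ± 0.21 (1193 to 544 in mean signal), and the antiviral DDX60 rose. Of 71 chromatin enzymes and readers 13 fell (18.3%) and 5 rose (7.04%), against 11.0% and 12.3% of all genes. The histone demethylase gene KDM4B fell by 1.01 ± 0.10 (1412, 1357 and 1626 in DMSO and 707, 708 and 732 at 1.0 µM), DNMT1, the maintenance DNA methyltransferase, by 0.59 ± 0.08 and KDM1A by 0.60 ± 0.12, while SIRT5, a mitochondrial desuccinylase, rose by 0.69 ± 0.10. Probe sets of KDM4B spread from −1.01 to 0.47 and those of SIRT5 from −0.18 to 0.69.

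Few ribosomal proteins were called. Of 60 cytosolic ribosomal proteins 1 was called (1.67%, against 23.2% of all genes), RPL22L1, a paralogue of RPL22, at 1.00 ± 0.11. Of 75 mitochondrial ribosomal proteins 6 were called (8.0%). Among 56 translation factors 7 rose (12.5%) and 4 fell (7.14%), against 12.3% and 11.0% of all genes. EIF4EBP1, which blocks cap-dependent initiation, read 899, 782 and 869 in DMSO and 2531, 2879 and 2456 at 1.0 µM, a rise of 1.61 ± 0.10 (adjusted p = 7.79e-07), while its paralogue EIF4EBP2 fell by 0.90 ± 0.12 (1246, 1179.8 and 1269 in DMSO and 603, 758 and 612 at 1.0 µM) and the cap-binding EIF4E by 0.46 ± 0.10. Of 20 enzymes of the tricarboxylic acid cycle 2 fell (10.0%, against 11.0% of all genes), SDHA (−0.85) and DLST (−0.36), and none rose. Of 18 genes of mitochondrial dynamics and biogenesis 1 was called (5.56%, against 23.2% of all genes), BNIP3 (−0.34).

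The isocitrate dehydrogenases that make NADPH moved in opposite directions. IDH1, the cytosolic isocitrate dehydrogenase, read 5643, 6784 and 4951 in DMSO and 13027, 16871 and 13908 at 1.0 µM, a rise of 1.33 ± 0.17 (adjusted p = 0.000117). Its call was lost within the lower spike set (0.28, adjusted p = 0.0731 in limma) and without 1.0 µM replicate 2 (0.43, adjusted p = 0.0618), where another of its 3 probe sets had the highest mean. IDH2, its mitochondrial counterpart, read 5992, 6722 and 6969.5 in DMSO and 2612, 3310.5 and 2496 at 1.0 µM, a fall of 1.23 ± 0.12 (adjusted p = 1.71e-05), and NNT, the mitochondrial transhydrogenase, fell by 0.77 ± 0.11. PGD and TKT, of the pentose phosphate pathway, rose by 0.62 ± 0.12 and 0.70 ± 0.20. Of the 12 genes of NADPH supply 8 were called (66.7%, against 23.2% of all genes), 5 higher and 3 lower. In folate metabolism the mitochondrial enzymes ALDH1L2 (1.92 ± 0.22), SHMT2 (0.63 ± 0.13) and MTHFD2 (0.53 ± 0.14) rose and the cytosolic MTHFD1 (−0.49 ± 0.12) fell. Of 16 one-carbon genes 5 rose (31.2%) and 2 fell (12.5%), against 12.3% and 11.0% of all genes. SMOX, which oxidises spermine, rose by 1.43 ± 0.13 (611, 712 and 700.2 in DMSO and 1694, 2195 and 1661 at 1.0 µM) and ASS1, of arginine synthesis, by 0.70 ± 0.10.

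Solute carriers had 44 rises and 20 falls among 254 (17.3% and 7.87%, against 12.3% and 11.0% of all genes). Apart from amino acid carriers, SLC31A1, the copper importer, read 697, 476 and 428 in DMSO and 1452, 1316 and 1393 at 1.0 µM, a rise of 1.38 ± 0.15 (adjusted p = 5.4e-05), and the phosphate carrier SLC20A1 rose by 0.95 ± 0.10. SLC35F6 rose by 1.37 ± 0.12 (1277 to 3307 in mean signal). Falls included SLC6A6, the taurine transporter, by 1.28 ± 0.13 (3322, 2963 and 2953 in DMSO and 1329, 1054 and 1406 at 1.0 µM), the glucose transporter SLC2A12 by 1.14 ± 0.12, the nucleoside transporter SLC29A1 by 0.77 ± 0.13 and the zinc importers SLC39A10 and SLC39A4 by 0.71 ± 0.11 and 0.64 ± 0.10. ABCG2, a multidrug efflux pump, fell by 1.10 ± 0.11 (5015, 4139 and 4779.5 in DMSO and 2177, 2278 and 2003 at 1.0 µM) and ABCC3, another efflux pump, rose by 0.83 ± 0.15. The chloride channel gene CLIC3 fell by 1.57 ± 0.12 (944, 1012 and 822 in DMSO and 288, 317 and 296 at 1.0 µM) and the chloride-proton exchanger CLCN3 rose by 1.12 ± 0.11. The potassium channel gene KCNK3 fell by 1.52 ± 0.22 (508 to 159.5). ATP2A3, a calcium pump of the endoplasmic reticulum, fell by 1.72 ± 0.23 (387, 324 and 470.5 in DMSO and 110.2, 155 and 70.3 at 1.0 µM). Of 24 ion-pumping ATPases 4 fell (16.7%, against 11.0% of all genes) and none rose. Among iron genes ISCU, the iron-sulfur cluster scaffold, rose by 0.87 ± 0.15, while STEAP3, a ferrireductase, fell by 0.70 ± 0.13 and TFRC, the transferrin receptor, by 0.34 ± 0.10.

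Genes of membrane traffic and protein turnover changed in both directions. Of 60 RAB GTPases, which direct vesicles, 12 rose and 6 fell. The share of rises was above the 12.3% of all genes, and that of falls (10.0%) was near the 11.0%. Of 84 secretory coat and tether genes 7 rose (8.33%) and 10 fell (11.9%), and of 52 deubiquitinases 6 rose (11.5%) and 5 fell (9.62%), against 12.3% and 11.0% of all genes tested. RAB33A read 475, 559.8 and 440.3 in DMSO and 1578, 1481 and 1615 at 1.0 µM, a rise of 1.64 ± 0.11 (adjusted p = 1.01e-06), RAB32 rose by 0.97 ± 0.09, and RAB26 fell by 1.04 ± 0.14 (2409 to 1169 in mean signal). The membrane fusion genes STX3 and STX4 rose by 1.06 ± 0.11 and 0.78 ± 0.11. Their weakest probe sets were at 0.2 and 0.02. RING finger and F-box genes, parts of ubiquitin ligases, had 18 rises (15.4%) and 3 falls (2.56%) among 117, with RNF19B at 1.32 ± 0.15. TRIM proteins had 10 rises (23.8%) and 3 falls (7.14%) among 42, with TRIM25 at 1.02 ± 0.11 and TRIM38 at 1.14 ± 0.10. In the circadian list 5 of 17 rose (29.4%) and 1 fell (5.88%). NFIL3 rose by 1.27 ± 0.09 (2026, 1918 and 2166 in DMSO and 4786, 5060 and 4915 at 1.0 µM) and NPAS2 by 1.00 ± 0.13. BHLHE41 fell by 0.55 ± 0.09 while its paralogue BHLHE40 rose by 0.68 ± 0.11.

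Long intergenic and antisense transcripts, 597 of which passed the filter, had a share of rises near that of all genes and few falls: 67 were higher (11.2%, against 12.3%) and 18 lower (3.02%, against 11.0%). Calls were scarcer among dim genes, and the part of signal level in these shares was not tested. MIR100HG, a microRNA host transcript, read 151, 106 and 120.5 in DMSO and 770.4, 764 and 769.9 at 1.0 µM, a rise of 2.48 ± 0.14 (adjusted p = 4.12e-07). LINC02806 rose by 2.49 ± 0.19 (62.6 to 423 in mean signal), RUSC1-AS1 by 1.45 ± 0.11 and LINC00662 by 1.17 ± 0.10 (1229.7, 1204 and 1086 in DMSO and 2501, 2847 and 2614 at 1.0 µM). The host transcript MIR210HG fell by 1.61 ± 0.17 (384, 350.1 and 458 in DMSO and 96, 139.8 and 123 at 1.0 µM) and LINC00261 by 0.92 ± 0.14. The arrays measured the host transcripts and not the microRNAs.

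**Figure D4:**
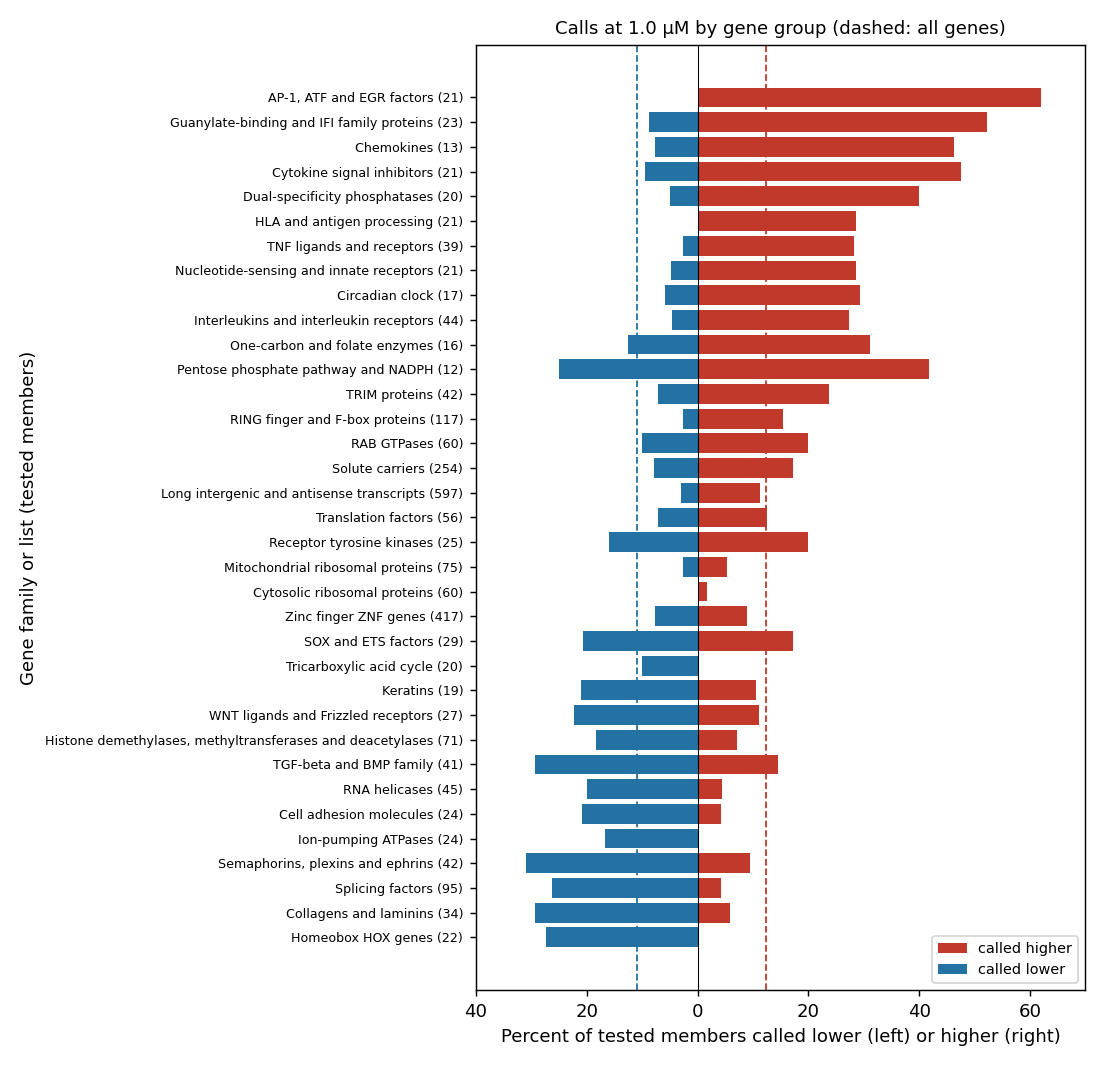
Percent of tested genes called higher (right) and lower (left) at 1.0 µM in gene families and lists with at least 12 tested members that are described in the text; dashed lines mark the shares over all 13948 genes (12.3% and 11.0%). AP-1, ATF and EGR factors (61.9% higher) and interferon-inducible families (52.2%) extend furthest to the right, and semaphorins, plexins and ephrins (31.0%) and the TGF-beta family (29.3%) are among the furthest to the left.

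Some genes crossed the filter level, which is a percentile of the signals and not a detection limit. In 27 genes called higher, each DMSO array lay under the filter level of 38.95 and each 1.0 µM array above it, and in 4 genes called lower the reverse held. The brightest at 1.0 µM after IL32 were TAC1 and INHBE, an activin subunit (31.3, 37.1 and 31.8 in DMSO and 230.5, 150.3 and 240.3 at 1.0 µM). HSD17B3, an androgen-synthesis enzyme, read 9.5, 14 and 14.7 in DMSO and 101, 98 and 95.7 at 1.0 µM, and F2RL2, a protease-activated receptor, 10, 5.2 and 26.3 in DMSO and 104, 147 and 87.6 at 1.0 µM. In the other direction were GNG13 (66.7, 128 and 61.5 in DMSO and 28.7, 23.9 and 29.3 at 1.0 µM) and KCTD12 (88.3, 76.8 and 78.2 in DMSO and 27.3, 30.8 and 37.4 at 1.0 µM), with PROC and the pseudogene DPH3P1. Values could lie close to the level: the pseudogene DNM1P46 read as little as 51.8 at 1.0 µM, and DPH3P1 read 38.4 and 38.6 in 2 of its 1.0 µM arrays. These genes were picked by the values themselves, so their separation is a description. The filter used a mean over all 9 arrays, of which 3 were DMSO, and so admitted genes dim only in DMSO more easily. The 27 and the 4 therefore cannot be compared as counts of gains and losses.

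Besides the IFIT genes, 6 other runs of 4 neighbouring tested genes were called in 1 direction. PARP9, DTX3L, PARP14 and HSPBAP1 on chromosome 3 rose by 0.41 to 1.14. PARP9 and DTX3L, which act as a pair in the response to DNA damage and interferon, share a promoter region, with changes of 0.41 ± 0.13 and 0.56 ± 0.12. RMC1, NPC1, ANKRD29 and TTC39C on chromosome 18 rose by 0.44 to 1.34. SCNN1G and SCNN1B, adjacent genes for 2 subunits of the epithelial sodium channel on chromosome 16, fell by 1.32 ± 0.23 and 1.36 ± 0.31 together with their neighbours COG7 (−0.40) and GGA2 (−0.45). SCNN1G read 155, 132 and 189.8 in DMSO and 65, 39.6 and 59 at 1.0 µM. Other probe sets of GGA2 reached 0.54 and of PARP9 −0.21. The other 3 runs fell: PARTICL, MAT2A, GGCX and VAMP8 on chromosome 2, SPAG4, CPNE1, RBM12 and NFS1 on chromosome 20, and GNG13, LMF1, SOX8 and SSTR5-AS1 on chromosome 16. The last run depended on the probe set: the 9 probe sets of LMF1 spread from −0.49 to 1.21, and its value was 0.03 with its probe sets averaged. PARP9, MAT2A and CPNE1 lost their calls in 13, 12 and 12 of the 21 alternatives besides the 1.5-fold rule. CPNE1 and RBM12 are overlapping genes, and their signals may not be separate.

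Probe sets of 1 gene did not always move together. Of 1075 genes with at least 2 called probe sets, 24 had probe sets called in opposite directions (19.8% of the 26873 probe sets with 1 symbol were called). PHLDA1, a gene induced by stress and growth factors, had the clearest case in brightness: 1 probe set rose from a mean signal of 3340 to 5870 (0.82 ± 0.11, adjusted p = 0.000338) and another fell from 4400 to 2764 (−0.66 ± 0.11, adjusted p = 0.00101). PRSS23, a serine protease, had 1 at 0.70 ± 0.12 and 1 at −0.65 ± 0.09. ERCC1, of nucleotide excision repair, had 1 at 0.62 ± 0.11 and 1 at −0.60 ± 0.16. PANK2, which makes coenzyme A from pantothenate, had the largest smaller change, with 1 at 1.01 ± 0.27 from a mean of 49.0 and 1 at −1.52 ± 0.35 from 399.5. The dimmer members of such pairs in PANK2, PHRF1 (20.1 in DMSO), CCN6 (41.4) and RERE (31.6) started near or below the filter level.

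**Figure D5:**
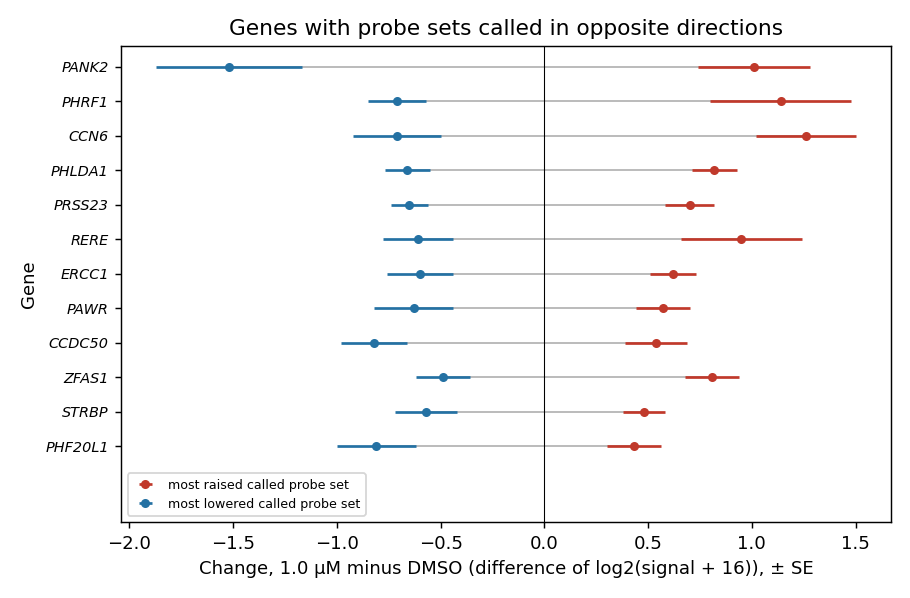
Changes at 1.0 µM (difference of log2(signal + 16), with limma standard error) of the most raised and most lowered called probe set in the 12 genes whose probe sets were called in opposite directions with the largest smaller change. PHLDA1 and PRSS23 have both members of the pair above a mean DMSO signal of 2000, while PANK2, PHRF1, CCN6 and RERE have 1 under 50.

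The doses differed directly for 114 genes (0.817% of those tested), 54 higher and 60 lower at 1.0 than at 0.1 µM, and 109 of them were among the 3240 called against DMSO. This count moved with the arrays and the settings. It was 17, 36 and 56 without 0.1 µM replicate 1, 2 or 3, and 26, 183 and 11 without 1.0 µM replicate 1, 2 or 3. It was 23 without the intensity trend, 23 with the replicate block, 51 after median centring, 67 with no filter, 173 after quantile normalization, 256 with the spike set as a block and 1 within the lower spike set, where 1 array at 0.1 µM remains. At 0.1 µM replicates 1 and 3 had high spikes (log2 12.123 and 12.058), but at 1.0 µM only replicate 2 did (12.088). The doses are thus unbalanced in spike level, and its part in their differences was not tested. Both doses share their DMSO arrays, so values against DMSO are given side by side. CXCL8 was 1.08 above DMSO at 0.1 µM and 2.63 at 1.0 µM, a difference between doses of 1.55 ± 0.20 (adjusted p = 0.00541). MAFF was at 1.47 and 2.56 (1.10 ± 0.12, adjusted p = 0.00227). CRABP2 was at −0.76 and −2.07 (−1.30 ± 0.12, adjusted p = 0.00227), with signals of 7681, 6919 and 8167 at 0.1 µM between those of the other groups. CLIC3 was at −0.45 and −1.57 (−1.12 ± 0.12) and CDH3 at −0.96 and −2.39 (−1.43 ± 0.19). The matrix gene VWA1 was at −0.56 and −1.73 (−1.17 ± 0.19, adjusted p = 0.0209), the phospholipase gene PLCH2 at −0.21 and −1.39 (−1.18 ± 0.20), LINC02593 at −0.33 and −1.54 (−1.21 ± 0.25) and the transcription activator CAMTA2 at 0.65 and 1.74 (1.09 ± 0.20, adjusted p = 0.0288). TICRR had −0.09 and −1.80 (−1.71 ± 0.30, adjusted p = 0.0249). The crystallin gene CRYAA was at 0.56 against DMSO at 0.1 µM and −0.82 at 1.0 µM (−1.38 ± 0.15, adjusted p = 0.00227). It was called higher than DMSO at 0.1 µM (adjusted p = 0.0287) and lower at 1.0 µM (adjusted p = 0.00178). Its signals were 224, 287 and 229.6 in DMSO, 398, 344 and 368 at 0.1 µM and 134, 124 and 139 at 1.0 µM. FASN did not pass this test (−0.25 ± 0.21, adjusted p = 0.697), nor did PTX3 (1.07 ± 0.24, adjusted p = 0.0673) or EIF4EBP1 (0.27 ± 0.10, adjusted p = 0.304).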

How the data were processed

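RNA from PANC-1 cells was hybridised to Affymetrix HG-U133 Plus 2.0 arrays, 9 in all. The deposited values are MAS5 signal intensity, per the submitters' processing notes, and in the file every array has a trimmed mean of 500.1. The MAS5 version and settings are not given in the sources used here, and the arrays' number limits the precision. The values were used as log2(intensity + 16) of the deposited intensity, with no further normalization. Gene symbols came from GEO's platform annotation, updated by Entrez identifier to RefSeq GRCh38.p14. Of 54675 probe sets 41091 had 1 symbol, 1801 several, and 11721 none in that table. Probe sets with a mean under 38.95, the 40th percentile, were left out. All 9 arrays were fitted with limma 3.58.1 in R 4.3.3 (lmFit, eBayes with an intensity trend), and p-values were Benjamini-Hochberg adjusted over all 13948 genes. The members, gene lists and families, motifs and tests were chosen with earlier results of these data known. Named genes were drawn by a rule, and not every gene that met it is described. The rule took FASN and the 24 steepest rises and falls among called genes whose 1.0 µM and DMSO arrays did not overlap. It took up to 4 called members per direction of each group with the smallest p. It also took run members, 6 genes with opposed probe sets and 6 with the largest dose difference. Genes left out include the rises SLCO4C1 (3.46), ABLIM3 (2.75), AKAP14 (2.48) and IL21R (2.47). They also include the falls ANGPTL4 (−2.5), ADAMTS15 (−2.29) and MXRA5 (−2.1). The following fell outside this rule and were chosen after their values were seen: ASNS, BATF3, BUB1B, CCL2, CDK1, CEBPB, CHAC1, CLDN7, CXCL1, DNM1P46, DPH3P1, EGFR, EGR1, F2RL2, FOSL1, HNRNPA2B1, HOXB5, HOXC9, HSD17B3, IL15, IL20RB, INHBE, ISG20, JDP2, JUN, JUND, JUP, KCTD12, KDM1A, LAMB1, MAFG, MTHFD2, MX1, SLC20A1, SLC29A1, SLC35F6, SLC3A2, SMAD7, TNFRSF1A, TNFSF9 and TOP2A. Same-numbered DMSO and 1.0 µM arrays had deviations that correlated at 0.217, 0.038 and −0.081, so the numbers were not treated as pairs. Alternatives covered the added constant, filter, normalization, probe set rule, trend, blocks and each array left out.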

Additional observations from a re-analysis of the deposited data

Results flagged for a closer look

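Probe sets without a single listed gene symbol entered none of the comparisons by gene. Of 5895 above the filter level 465 were called at 1.0 µM against DMSO (7.89%), 232 higher and 233 lower. Probe set 236898_at, for which no gene is named here, read 14.4, 23.8 and 19.3 in DMSO and 334, 328 and 309 at 1.0 µM. Its change was 3.28 ± 0.18 on the log2(signal + 16) scale (limma, adjusted p = 1.02e-06), which stands out because the signal lies outside the main measurement and above that in the control arrays.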

How the results depend on the processing

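The 3240 calls became 2356 to 3321 when single arrays were left out (1259 to 1729 higher and 1097 to 1592 lower), and 2615 after median centring, 3593 after quantile normalization and 4363 with the spike set as a block. Asking for at least 1.5-fold left 1788 (990 higher, 798 lower). With the replicate block 2550 genes were called, 1371 higher and 1179 lower, though the replicate numbers were not treated as pairs in the main fit. Of the 245 tabulated genes 192 kept direction and side of the threshold in every alternative run, 49 lost or gained a call in at least 1, and 6 changed sign in at least 1. The 3 that gained one were KRT18, PHLDA1 and PRSS23. Besides the changes of sign below, asking for 1.5-fold was the only loss for 9: BHLHE41, DTX3L, HOXB3, LMF1, MYD88, NECTIN2, NFS1, RBM12 and RMC1. Of the 37 others 10 lost the call in 6 or more of the 21 remaining alternatives: BATF3, BNIP3, CCN6, COL16A1, CPNE1, DLST, MAT2A, PARP9, RERE and TFRC. The rest lost it in fewer: COG7, COL27A1, DUSP1, EGFR, EIF4E, ERCC1, ETV4, FASN, GGA2, GGCX, GNG13, HNRNPA2B1, IDH1, JUP, LAMB1, MTHFD1, MTHFD2, PARTICL, PARP14, SIRT5, SMAD7, SPAG4, SSTR5-AS1, TKT, TNFSF9, VAMP8 and WNT4. With probe sets averaged DUSP1 was at 0.42, HNRNPA2B1 at −0.21 and SIRT5 at 0.24, each without a call. With each gene's probe sets averaged CCN6 was at 0.27, LMF1 at 0.03, PANK2 at −0.02, PHRF1 at 0.22 and JUN at 0.01. EPCAM was at 0.03 within the lower spike set, 0.01 without DMSO replicate 1 and 0.05 without 1.0 µM replicate 2, within a range of −0.16 to 0.05 over arrays left out. JUN was at 0.0 after quantile normalization and without DMSO replicate 1 or 1.0 µM replicate 1, within a range of −0.03 to 0.0. The cause was not tested. Of 1540 group counts under alternatives 1282 stayed within 1.5 times. Over the 21 alternatives falls ran from 15 to 37 among splicing factors (25 in the report), 14 to 44 among zinc finger genes (32), 7 to 15 in the TGF-beta family (12), 2 to 11 among RAB GTPases (6) and 1 to 8 in the citric acid cycle (2). Rises ran from 42 to 82 among long non-coding RNAs (67), 7 to 13 among interleukins and receptors (12) and 2 to 6 in NADPH supply (5). Genes with opposed probe sets numbered 9 to 52. Dim genes had few calls (7.28% in the dimmest class), so a missing call there is weak evidence.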
